A study of Mus musculus with 25 samples.

Results

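The genes of serotonin and catecholamine synthesis were 8 of the 17885 genes with a row in at least 1 deposited table of mouse islet RNA. They were taken by gene symbol, with earlier results of these data known: Tph1, Tph2, Th and Ddc for synthesis, Slc18a2 for storage, Prlr as the receptor upstream of Tph1, and Maoa and Maob for breakdown. A row was present for 7 of the 8 among 12822 genes of the HFD table, 17549 genes of the PBS table and 15216 genes of the WT table. The db table held all 8 among its 16958 genes, and Tph1 had a row there only. Messenger RNA of isolated pancreatic islets was sequenced, and the values are FPKM, that is, fragments mapped to a gene divided by the length of its transcript and by the total of the library. FPKM are thus per length, so levels of different genes can be set side by side.

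The study concerned BAF60C, a chromatin remodelling subunit, in type 2 diabetes. Per the labels the islets of 3 or more mice were pooled for each sample. The HFD table holds 2 BcBKO libraries and 2 flox/flox libraries, both after 3 months on HFD (high-fat diet). BcBKO is a beta-cell-specific ablation driven by Pdx1-cre, and Pdx1, which supplies the promoter, is a pancreatic gene that is active beyond beta cells during development. The PBS table holds 2 libraries each of KO_REG3B-Fc, KO_PBS and CTR_PBS islets. KO is not spelled out in the labels, REG3B-Fc is by its name a fusion of the secreted lectin REG3B with an Fc fragment, and PBS is the saline vehicle. The db table holds 2 db_REG3B and 2 db_GFP libraries, the WT table holds 5 WT libraries, and db is likewise not spelled out. Ages and strains are not given in the sources used here, and 6 samples on chow were not analysed here.

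Serotonin is made from tryptophan in a pair of steps: a tryptophan hydroxylase, TPH1 or TPH2, and then the aromatic amino acid decarboxylase encoded by Ddc. Catecholamines start from tyrosine, which tyrosine hydroxylase (Th) converts to L-DOPA and DDC to dopamine. Slc18a2 encodes the vesicular monoamine transporter VMAT2, and the monoamine oxidases A and B degrade serotonin and dopamine. In mouse islets, prolactin and placental lactogen act through the prolactin receptor in pregnancy, when Tph1 is strongly induced in beta cells.

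Smarcd3, which encodes BAF60C, was 3.11 and 2.40 FPKM in the libraries labelled BcBKO on HFD, against 2.57 and 2.55 FPKM in those labelled flox/flox, and 0.75 and 1.09 FPKM in those labelled KO_PBS, against 1.03 and 1.15 FPKM in those labelled CTR_PBS. Both pairs overlapped, so the level of this gene does not check the labels, and a gene-level FPKM cannot show whether single exons are missing. BcBKO and KO are therefore used below as the labels of libraries. All 8 beta cell markers (Ins1, Ins2, Mafa, Slc2a2, Iapp, G6pc2, Nkx6-1 and Ucn3) reached 1 FPKM in every library, and together they made up 28.6 to 71.7% of the summed FPKM, so the islet label held. Other cells in which the hydroxylases are known left few transcripts. Of 9 mast cell markers 2 had a row on HFD and in the db table and 5 in the PBS table, where Fcer1a was listed at 0 and Cpa3 and Cma1 at no more than 0.18 and 0.04 FPKM. Of the 8 neural crest, sympathetic and adrenal medulla markers, Dbh reached at most 0.05 FPKM where listed. Acinar transcripts, from the exocrine pancreas, were also present. Their 8 markers took 8.30 to 8.32% of the summed FPKM in KO_REG3B-Fc, 20.3 to 21.2% in KO_PBS and 9.70 to 9.84% in CTR_PBS libraries. Because the whole distribution moved in the PBS table, with a median gene at -0.44 on the log2 scale in KO_PBS against CTR_PBS and at 0.53 in KO_REG3B-Fc against KO_PBS, changes there are given after median scaling, which divides each library by its median ratio to the geometric mean library. Tests were made with limma on log2(FPKM + 1), which understates changes of genes of low FPKM, p-values adjusted by Benjamini-Hochberg over every gene of the fit and a threshold of 0.05. Every group compared had 2 libraries, and the p-values measure only the spread between these samples, which may be technical. In bulk islets fewer cells of a type and less RNA per cell cannot be told apart.

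The decarboxylase dominated the synthesis genes, and the hydroxylases of serotonin synthesis were near the bottom of the scale. Ddc lay between 94.49 and 196.27 FPKM over the 19 libraries. Tph2 lay between 0.09 and 1.60 FPKM, and Tph1, in the table that lists it, between 0 and 0.18 FPKM. Neither hydroxylase was thus above 1.60 FPKM in any library that lists it. Th, which supplies the catecholamine branch, ran from 6.05 FPKM in a WT library to 65.61 FPKM in a db_REG3B library. Slc18a2 stayed at or below 0.88 FPKM everywhere, while Slc18a1, which encodes the related transporter VMAT1, lay between 2.34 and 8.01 FPKM. Maob exceeded Maoa in every library: Maob lay between 15.82 and 78.44 FPKM and Maoa between 2.28 and 3.86 FPKM.

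**Figure D1:**
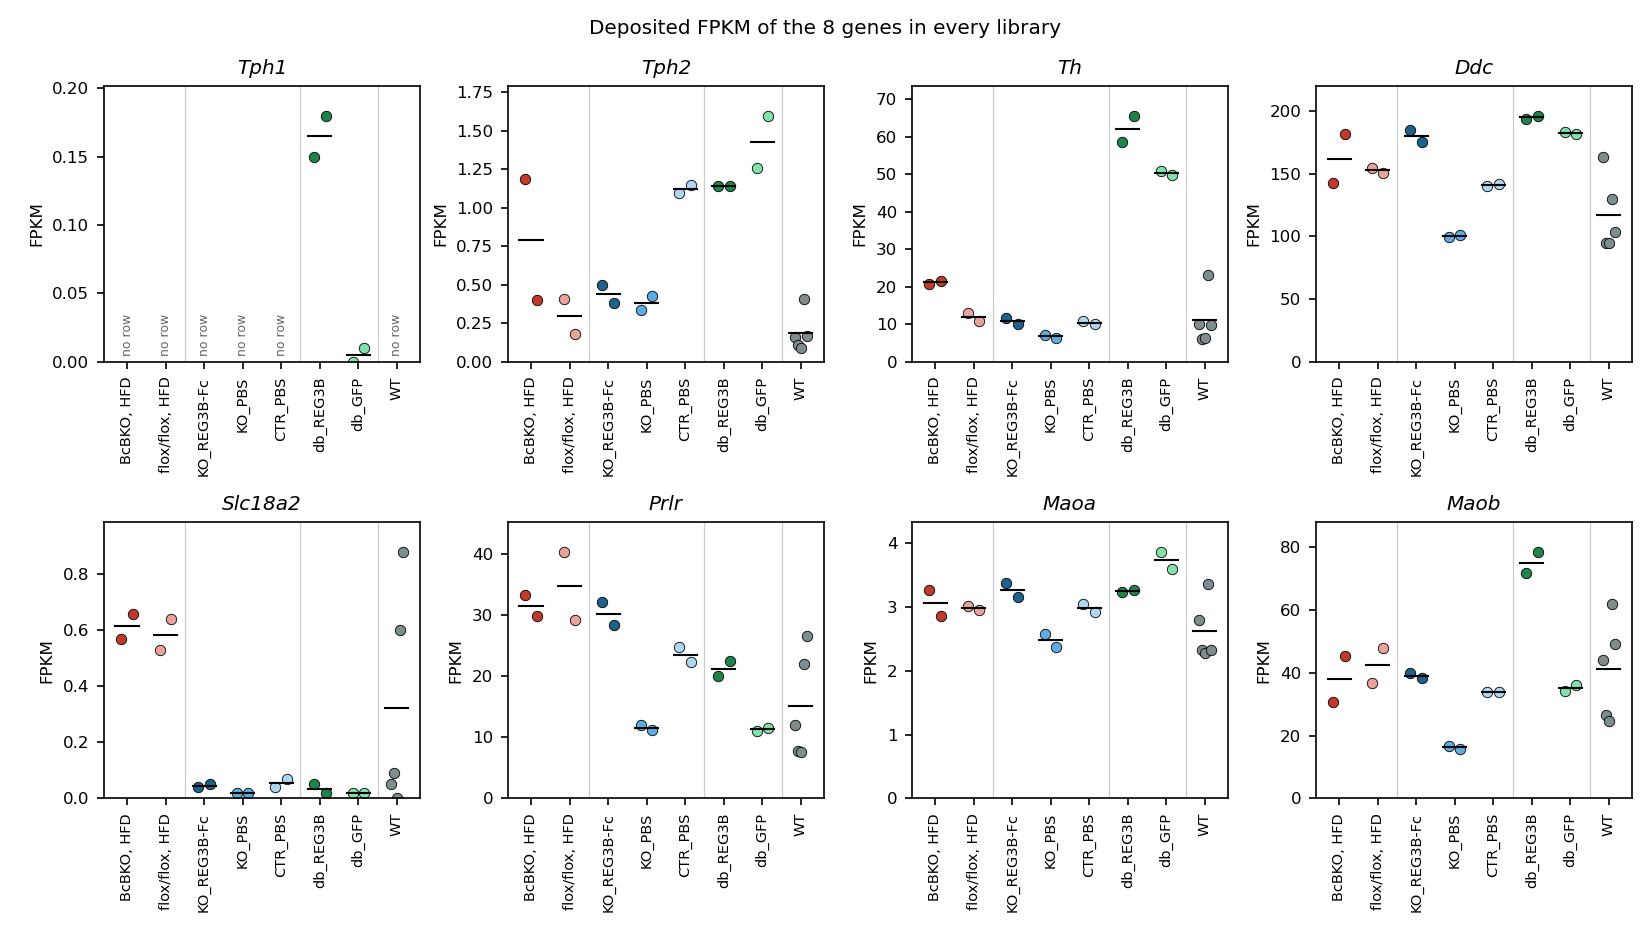
Deposited FPKM of each of the 8 genes (y axis, from 0) by group (x axis); each point is a library, the line is the group mean, and grey lines part the 4 tables, which were normalized separately. Th reaches 58.7 and 65.61 FPKM in db_REG3B islets and 50.93 and 49.81 FPKM in db_GFP islets, and Tph1 has a row in the db table only.

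The tables were normalized separately, so the order of the groups is a description. Mean Th stood at 62.2 FPKM in db_REG3B, 50.4 in db_GFP, 21.2 in BcBKO on HFD, 12.0 in flox/flox on HFD, 11.1 in WT, 11.0 in KO_REG3B-Fc, 10.4 in CTR_PBS and 6.84 in KO_PBS. The db libraries were the 4 highest, and the groups from flox/flox on HFD to CTR_PBS did not differ beyond the spread of the WT libraries (SD 6.99 FPKM, n = 5). Mean Ddc ran from 195 FPKM in db_REG3B through 182 in db_GFP, 180 in KO_REG3B-Fc, 162 in BcBKO on HFD, 153 in flox/flox on HFD, 141 in CTR_PBS and 117 in WT down to 100.4 in KO_PBS. For Ddc the neighbours in this order overlapped in their libraries except db_REG3B and db_GFP, flox/flox on HFD and CTR_PBS. Mean Prlr was highest on HFD, at 31.5 FPKM in BcBKO and 34.8 in flox/flox, and lowest in KO_PBS at 11.6 and db_GFP at 11.3. Mean Maob was 75.1 FPKM in db_REG3B and 16.3 in KO_PBS, and the 6 other groups lay between 33.9 and 42.4.

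The members lie on 6 chromosomes of GRCm38.p6, the build named in the submitters' processing notes. Tph1 (7:46644641-46672537) and Th (7:142892779-142899995) are both on chromosome 7. Maoa (X:16619698-16687812) and Maob (X:16709281-16817366) are neighbours on the X chromosome, on opposite strands with their 3′ ends facing, and 0 annotated genes stand in the 21463 bases between them. Ddc is at 11:11814101-11898144, Tph2 at 10:115078641-115185022, Slc18a2 at 19:59260878-59296012 and Prlr at 15:10177238-10349190. An exon of Slc18a2 is overlapped by the antisense gene Gm29261 and an exon of Prlr by Gm21973 on the same strand. The counting rule is not given in the sources used here, so these 2 values may hold reads of both genes.

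Upstream windows of 250 bases were searched on both strands in the RefSeq promoter table (GRCm38.p6), which holds 11 windows for 7 members; Maob has no entry. The cyclic AMP response element TGACGTCA is in 1 of the 11, that of Th, and in 1.55% of all 32851 windows. In the rat this element of the Th promoter is known to carry the response to cyclic AMP. The STAT binding element TTCNNNGAA, to which STAT factors activated by prolactin receptors bind, is also in 1 of the 11, at the second listed start site of Prlr, and in 7.02% of all windows. The 30 bases around each are given because Th and Prlr are among the members whose levels differed between groups, with the motif in capitals.
Th, 7:142900022-142900051, minus strand, motif at 45 to 38 bases before the start: cagaggggcttTGACGTCAgcctggccttt
Prlr, 15:10223786-10223815, plus strand, motif at 110 to 102 bases before the start: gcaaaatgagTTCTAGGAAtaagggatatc
The TATA box sequence TATAAA is, on either strand, in 2 of the 11 windows, against 12.4% of all windows. In that of Tph2 it lies on the strand of the gene, from 30 bases before the start. In that of the first start site of Ddc it lies on the opposite strand, from 68 bases before the start. TGACGTCA and TTCNNNGAA read the same on both strands, and a match describes sequence, not binding.

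In db islets with REG3B, Maob, Prlr and Th rose among the 6 members over the filter, and none of the 6 passed as lower. Maob was 71.79 and 78.44 FPKM in db_REG3B islets, against 34.35 and 36.08 FPKM in db_GFP islets. The 2 groups were far apart, with a mean 2.13-fold higher, and the log2 change was 1.07 ± 0.06 (SE, n = 2 each; limma adjusted p = 6.77e-07). MAOB is the mitochondrial enzyme that prefers phenylethylamine and degrades dopamine. Prlr was 20.05 and 22.46 FPKM in db_REG3B islets, against 11.07 and 11.49 FPKM in db_GFP islets. Its log2 change was 0.86 ± 0.07 (SE, n = 2 each; limma adjusted p = 1.07e-05), with a mean 1.88-fold higher. Th was 58.7 and 65.61 FPKM in db_REG3B islets, against 50.93 and 49.81 FPKM in db_GFP islets. The Th groups did not overlap, and the log2 change was 0.30 ± 0.06 (SE, n = 2 each; limma adjusted p = 0.00283).

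The other members of the db table moved little or lay at very low levels. Ddc was 193.58 and 196.27 FPKM in db_REG3B islets, against 183.05 and 181.49 FPKM in db_GFP islets, and its log2 change of 0.10 did not pass on the deposited scale (limma adjusted p = 0.0699). After median scaling Ddc passed at 0.17 (limma adjusted p = 0.00475), and its groups did not overlap on either scale. Maoa, the oxidase that prefers serotonin, was 3.24 and 3.26 FPKM in db_REG3B islets, against 3.86 and 3.60 FPKM in db_GFP islets. Its change of -0.15 did not pass (limma adjusted p = 0.168), although the 2 groups did not overlap. Tph2, the hydroxylase known from neurons, was 1.14 and 1.14 FPKM in db_REG3B islets, against 1.26 and 1.60 FPKM in db_GFP islets, and its change of -0.18 did not pass (limma adjusted p = 0.207).

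Tph1, the hydroxylase known from peripheral tissues, was listed at 0.15 and 0.18 FPKM in db_REG3B islets, against 0 and 0.01 FPKM in db_GFP islets. Both db_REG3B libraries were thus higher, at levels below the filter of 1 FPKM in at least 2 libraries. In the fit without that filter its log2 change was 0.21 ± 0.03 (SE, n = 2 each; limma adjusted p = 0.0138), while the adjusted p of the authors' deposited table was 0.0615. Slc18a2 was 0.05 and 0.02 FPKM in db_REG3B islets, against 0.02 and 0.02 FPKM in db_GFP islets, and it was under the filter too.

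Of the 6 members tested in db islets 3 rose and 0 fell, where 12.2% of all tested genes rose and 30.8% fell. Their median log2 change was 0.20, and that of all tested genes was -0.06. The 8 beta cell markers made up 59.5 to 59.7% of the summed FPKM in db_REG3B libraries, against 40.6 to 40.8% in db_GFP libraries, and 7 of the 8 rose. The 5 stellate markers summed to 168 to 179 FPKM in db_REG3B libraries, against 939 to 951 FPKM in db_GFP libraries, and all 5 alpha cell markers together took 1.80 to 1.82% against 4.34 to 4.38%. The part of these shares in the changes of Maob, Prlr and Th was not tested. When each library was instead scaled to 8 genes of the endocrine secretory granule, among them Chga, Chgb and Cpe, the changes were 1.18 for Maob, 0.96 for Prlr and 0.41 for Th.

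**Figure D2:**
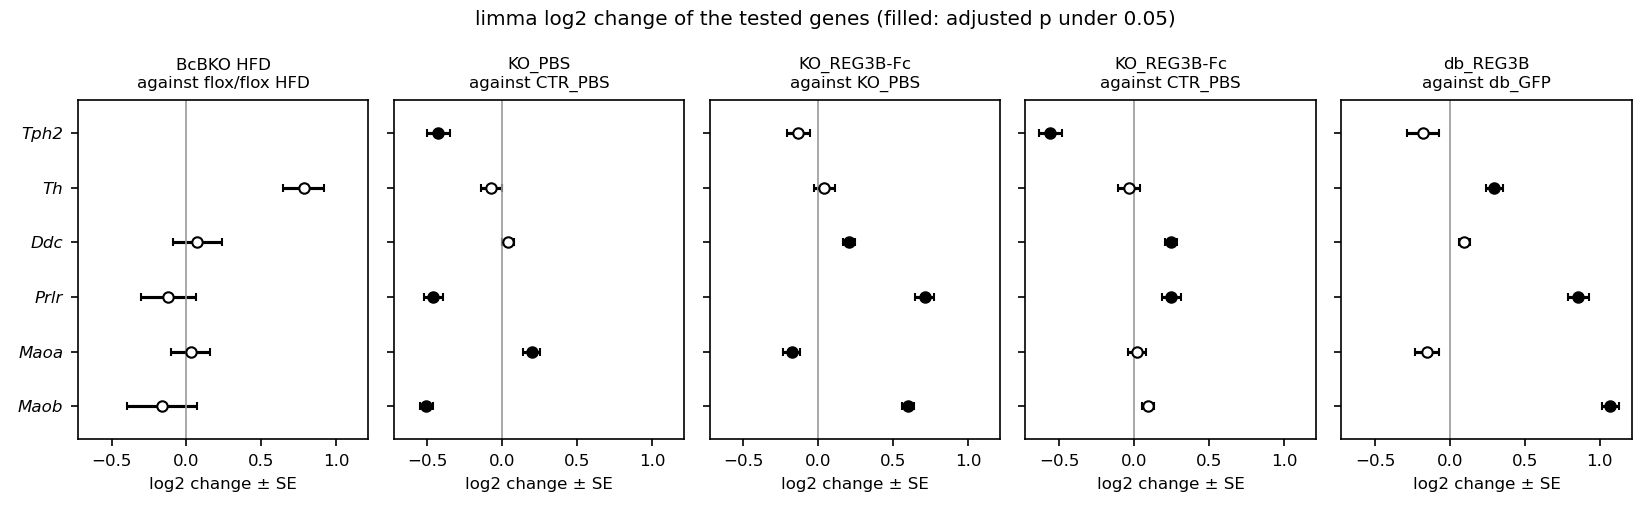
limma log2 change ± SE (x axis) of the tested members in 5 comparisons of 2 libraries against 2; filled points have an adjusted p under 0.05, HFD and db on the deposited scale and the other 3 after median scaling. Maob stands at 1.07 and Prlr at 0.86 in db_REG3B against db_GFP, and no member passed in BcBKO against flox/flox on HFD.

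In KO_PBS islets Maob and Prlr were lower than in CTR_PBS islets, Tph2 was lower at a level near 1 FPKM or less, and Maoa was slightly higher. Maob was 16.84 and 15.82 FPKM in KO_PBS islets as deposited, against 33.87 and 33.99 FPKM in CTR_PBS islets. After median scaling its means were 21.4 ± 0.669 FPKM in KO_PBS and 30.8 ± 0.413 FPKM in CTR_PBS (SD, n = 2 each), and it fell by 0.51 on the log2 scale (limma adjusted p = 2.41e-05). Prlr was 12.04 and 11.13 FPKM in KO_PBS islets as deposited, against 24.7 and 22.25 FPKM in CTR_PBS islets. After median scaling it fell by 0.46 on the log2 scale (limma adjusted p = 0.000539). For Maob and Prlr the groups stood apart on both scales. Tph2 was 0.34 and 0.43 FPKM in KO_PBS islets as deposited, against 1.10 and 1.15 FPKM in CTR_PBS islets, and it fell by 0.43 (limma adjusted p = 0.00239). Tph2 passed the filter only through the 2 CTR_PBS libraries, so that it had to be lower elsewhere, and its call supports nothing.

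The remaining members depended on the scale or did not pass. Ddc was 99.52 and 101.36 FPKM in KO_PBS islets as deposited, against 140.38 and 141.75 FPKM in CTR_PBS islets. Its change was -0.49 on the deposited scale (limma adjusted p = 4.6e-06) and 0.04 after median scaling (limma adjusted p = 0.438), where its groups overlapped. Th was 7.19 and 6.48 FPKM in KO_PBS islets as deposited, against 10.88 and 10.00 FPKM in CTR_PBS islets. Th differed by -0.55 as deposited (limma adjusted p = 0.000119) and by -0.07 after median scaling (limma adjusted p = 0.427). Maoa was 2.57 and 2.38 FPKM in KO_PBS islets as deposited, against 3.04 and 2.92 FPKM in CTR_PBS islets. It fell by 0.20 as deposited (limma adjusted p = 0.0157) and rose by 0.19 after median scaling (limma adjusted p = 0.0249), so that its direction is set by the scale. The Maoa call was also lost without CTR_PBS replicate 1 (limma adjusted p = 0.0792), CTR_PBS replicate 2 (limma adjusted p = 0.112) or KO_PBS replicate 1 (limma adjusted p = 0.0935). Slc18a2 was 0.02 and 0.02 FPKM in KO_PBS islets, against 0.04 and 0.07 FPKM in CTR_PBS islets, and was not tested.

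After median scaling 1 of the 6 tested members rose in KO_PBS islets and 3 fell, where 24.6% of all tested genes rose and 20% fell. On the deposited scale 6 fell and 0 rose, where 81.5% of all tested genes fell and 8.66% rose. Tph2 is among those that fell on both scales, and since it entered the test only through CTR_PBS nothing is read from these counts. With either CTR_PBS library left out, Tph2 was under the filter and was not tested. Without CTR_PBS replicate 1 or replicate 2, the count of members called after median scaling was 2 in place of 4. The beta cell markers made up 40.2 to 40.9% of the summed FPKM in KO_PBS libraries, against 60.4 to 61.3% in CTR_PBS libraries, and 6 of the 8 fell. The 8 immune markers, among them Ptprc and the B cell genes Cd79a and Cd79b, summed to 142 to 148 FPKM in KO_PBS libraries, against 15.9 to 16.8 FPKM in CTR_PBS libraries, and 6 of the 6 tested rose, as did 8 of 8 acinar markers. Of the immune markers tested, Cd79b and Ms4a1 passed the filter only through the KO_PBS libraries, so that they had to be higher there, and their calls support nothing. The part of these shares, and of the acinar share given above, in the changes of Maob and Prlr was not tested. On the scale of the endocrine granule genes Maob changed by -0.51 and Prlr by -0.46, and both passed.

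In KO_REG3B-Fc islets Prlr, Maob and Ddc rose and Maoa fell against KO_PBS islets after median scaling. The comparison shares the KO_PBS libraries with the one above. Prlr was 32.1 and 28.31 FPKM in KO_REG3B-Fc islets as deposited, against the 12.04 and 11.13 FPKM in KO_PBS islets. Its median-scaled means were 25.5 ± 1.81 FPKM in KO_REG3B-Fc and 15.2 ± 0.647 FPKM in KO_PBS (SD, n = 2 each), with a log2 change of 0.71 (limma adjusted p = 4.57e-05). Maob was 39.8 and 38.23 FPKM in KO_REG3B-Fc islets as deposited, against the 16.84 and 15.82 FPKM in KO_PBS islets. Its median-scaled means were 33.0 ± 0.352 FPKM in KO_REG3B-Fc and 21.4 ± 0.669 FPKM in KO_PBS (SD, n = 2 each), with a log2 change of 0.60 (limma adjusted p = 9.68e-06). The groups of both genes stood apart on the deposited and on the median scale. Ddc was 185.02 and 174.86 FPKM in KO_REG3B-Fc islets as deposited, against the 99.52 and 101.36 FPKM in KO_PBS islets. Its change was 0.21 after median scaling (limma adjusted p = 0.00277) and 0.05 on the scale of the endocrine granule genes, where it did not pass (limma adjusted p = 0.374).

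Th was 11.81 and 10.09 FPKM in KO_REG3B-Fc islets as deposited, against the 7.19 and 6.48 FPKM in KO_PBS islets. Its change was 0.61 as deposited (limma adjusted p = 4.77e-05), 0.04 after median scaling (limma adjusted p = 0.673) and -0.10 on the endocrine scale (limma adjusted p = 0.281). Maoa was 3.37 and 3.15 FPKM in KO_REG3B-Fc islets as deposited, against the 2.57 and 2.38 FPKM in KO_PBS islets. It fell by 0.18 after median scaling (limma adjusted p = 0.0367) and rose by 0.29 as deposited (limma adjusted p = 0.00155). That call was lost without KO_PBS replicate 1 (limma adjusted p = 0.13) or either KO_REG3B-Fc library (limma adjusted p = 0.0879 and 0.168). Tph2, at 0.50 and 0.38 FPKM in KO_REG3B-Fc islets against 0.34 and 0.43 FPKM in KO_PBS islets, overlapped between the groups as deposited. After median scaling its groups did not overlap, and its change of -0.13 did not pass (limma adjusted p = 0.189). Slc18a2 was 0.04 and 0.05 FPKM in KO_REG3B-Fc islets, against 0.02 and 0.02 FPKM in KO_PBS islets, and was under the filter. Of the 6 tested members 3 rose and 1 fell, where 20.2% of all tested genes rose and 24.7% fell, and on the deposited scale 5 rose and 0 fell, where 86.2% rose and 6.97% fell. Beta cell markers were 60.7 to 61.0% of the summed FPKM in KO_REG3B-Fc libraries, against 40.2 to 40.9% in KO_PBS libraries, and 5 of the 8 rose. Immune markers summed to 22.8 to 23.6 FPKM in KO_REG3B-Fc libraries, against 142 to 148 FPKM in KO_PBS libraries, and 6 of the 6 tested fell, as did 8 of 8 acinar markers. Cd79b and Ms4a1, which are among these immune markers, passed the filter only through KO_PBS, so that they had to be lower in KO_REG3B-Fc, and their calls support nothing. Alpha cell markers took 0.898 to 0.945% in KO_REG3B-Fc libraries, against 0.359 to 0.377% in KO_PBS libraries, and 5 of 5 rose, while delta and PP cell markers took 0.687 to 0.712% against 0.256 to 0.285%, and 2 of 3 rose. The part of these shares in the changes of the members was not tested.

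**Figure D3:**
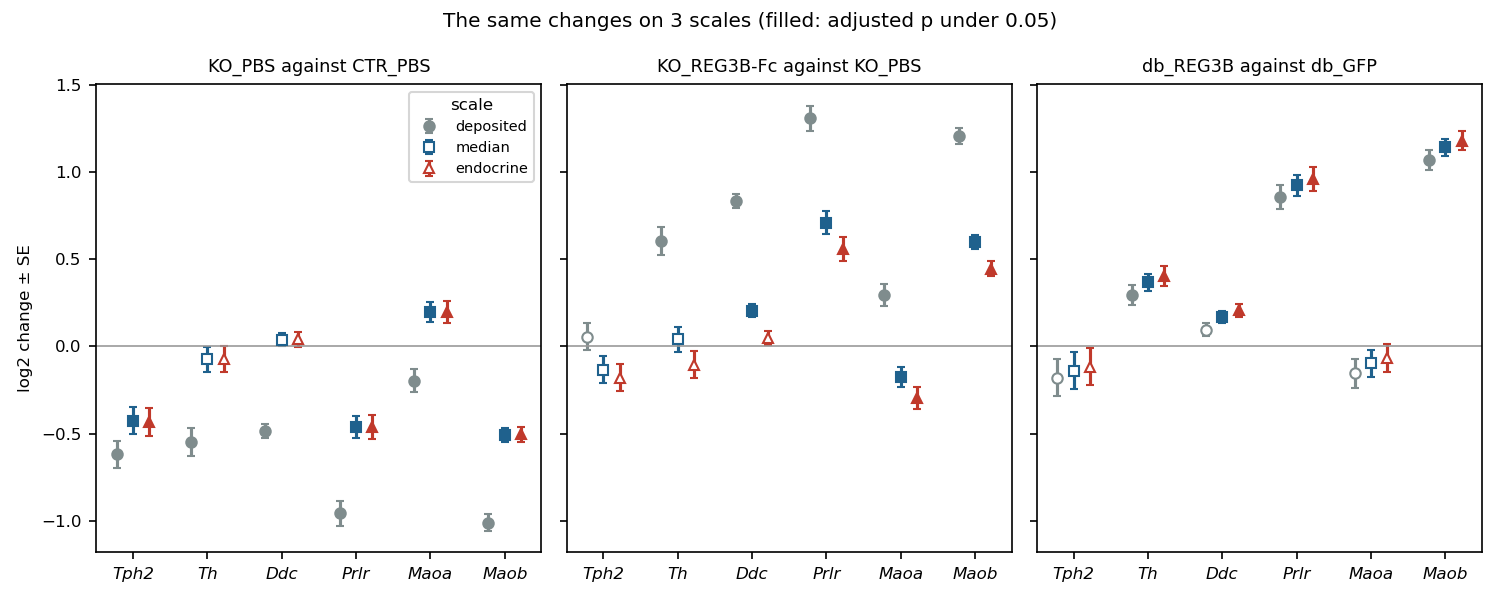
limma log2 change ± SE (y axis) of 6 members (x axis) on 3 scales: FPKM as deposited (circles), after median scaling (squares) and scaled to 8 endocrine granule genes (triangles); filled symbols have an adjusted p under 0.05. Maob and Prlr keep their sign on all 3 scales in the 3 comparisons shown, while Ddc, Th, Maoa and Tph2 change sign between scales in at least 1 of the PBS comparisons.

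KO_REG3B-Fc and CTR_PBS islets were closer to each other, and these values share the KO_REG3B-Fc and CTR_PBS libraries with the comparisons above. Ddc rose by 0.25 after median scaling (limma adjusted p = 0.00539), with means of 152 ± 3.37 FPKM in KO_REG3B-Fc and 128 ± 2.28 FPKM in CTR_PBS (SD, n = 2 each). Prlr rose by 0.25 (limma adjusted p = 0.0439), with means of 25.5 ± 1.81 FPKM in KO_REG3B-Fc and 21.3 ± 1.34 FPKM in CTR_PBS (SD, n = 2 each). Neither passed on the endocrine scale, where the changes were 0.09 for Ddc and 0.10 for Prlr. Tph2 fell by 0.56 (limma adjusted p = 0.00301), again a gene that passed the filter only through CTR_PBS. It was not tested with either CTR_PBS library left out. Maob differed by 0.09 (limma adjusted p = 0.193), Maoa by 0.02 (limma adjusted p = 0.878) and Th by -0.03 (limma adjusted p = 0.808), none of which passed. Of the 6 tested members 2 rose and 1, Tph2, fell, where 5.47% of all tested genes rose and 5.3% fell. Without CTR_PBS replicate 1 the count called was 0, and without CTR_PBS replicate 2 it was 1. The Prlr call was lost without any 1 of the 4 libraries (limma adjusted p = 0.0511 to 0.254), and that of Ddc without CTR_PBS replicate 1 (limma adjusted p = 0.0701). In this comparison 5 of 5 alpha cell and 3 of 3 delta and PP cell markers rose, and 8 of 8 acinar markers fell. Alpha cell markers took 0.898 to 0.945% in KO_REG3B-Fc libraries, against 0.414 to 0.434% in CTR_PBS libraries, delta and PP cell markers 0.687 to 0.712% against 0.279 to 0.287%, and acinar markers 8.30 to 8.32% against 9.70 to 9.84%. Their part in the changes of Ddc and Prlr was not tested.

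On HFD no member passed in limma between BcBKO and flox/flox islets, and 1 of the 5 tested, Th, had an unadjusted p under 0.05. Th was 20.87 and 21.50 FPKM in BcBKO islets, against 13.08 and 10.82 FPKM in flox/flox islets. Its log2 change was 0.78 ± 0.13 (SE, n = 2 each; limma unadjusted p = 0.00194, adjusted p = 1.00), and the adjusted p of the authors' deposited table was 0.0121. Set against the next enzyme within each library, Th was 0.146 and 0.118 of the Ddc level in BcBKO islets, against 0.0845 and 0.0718 in flox/flox islets, and these ratios did not overlap either. Within the single WT label the same ratio ran from 0.0620 to 0.178 (SD 0.0494, n = 5), a range that takes in both HFD groups. Limma called 0.00865% of all genes tested in this comparison as higher and 0% as lower, and 3.69% had an unadjusted p under 0.05.

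The other members overlapped between BcBKO and flox/flox islets. Ddc was 142.46 and 181.48 FPKM in BcBKO islets, against 154.88 and 150.68 FPKM in flox/flox islets. Prlr was 33.26 and 29.78 FPKM in BcBKO islets, against 40.31 and 29.22 FPKM in flox/flox islets. Maob was 30.83 and 45.44 FPKM in BcBKO islets, against 36.86 and 48.03 FPKM in flox/flox islets. Within each group the 2 libraries of Maob lay further apart than the group means of 38.1 and 42.4 FPKM. Maoa was 3.27 and 2.86 FPKM in BcBKO islets, against 3.01 and 2.95 FPKM in flox/flox islets. Tph2 was 1.19 and 0.40 FPKM in BcBKO islets, against 0.41 and 0.18 FPKM in flox/flox islets, and Slc18a2 0.57 and 0.66 FPKM in BcBKO islets, against 0.53 and 0.64 FPKM in flox/flox islets. Both of these were under the filter. The median log2 change of the 5 tested members was 0.03, and that of all tested genes was 0.08.

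The 5 WT libraries showed how far these genes range within a single label. Th was 10.14, 6.05, 6.37, 23.16 and 9.92 FPKM in replicates 1 to 5. Maob was 44.07, 26.46, 24.71, 61.95 and 49.15 FPKM. Both were highest in replicate 4 and lowest in replicates 2 and 3. Prlr was 12.01, 7.69, 7.63, 21.99 and 26.52 FPKM, with replicates 4 and 5 well above the rest. Ddc was 163.44, 94.49, 94.74, 129.82 and 103.33 FPKM, highest in replicate 1. Maoa ranged less, with a lowest, median and highest value of 2.28, 2.33 and 3.36 FPKM. Slc18a2 ranged from 0 to 0.88 FPKM and Tph2 from 0.09 to 0.41 FPKM. Beta cell markers made up 39.8, 30.5, 28.6, 64.7 and 42.4% of the summed FPKM in replicates 1 to 5, and acinar markers 20.7, 27.1, 28.2, 4.34 and 14.7%. Replicate 4, with the highest beta cell share and the lowest acinar share, was also the highest for Th, Maob, Maoa and Tph2 as deposited. Replicates 2 and 3, with the lowest beta cell shares, held the 2 lowest deposited values of Th, Maob, Prlr and Ddc. After median scaling Ddc was 114 and 123 FPKM in replicates 2 and 3, above 103 and 88.8 FPKM in replicates 4 and 5. Maoa was then highest in replicate 3, at 2.96 FPKM, with 2.68 FPKM in replicate 4. The highest Maob was 1.54 times the lowest, in place of 2.51 times as deposited. The order given for Th, Maob, Prlr and Tph2 held. The part of these shares in the levels was not tested.

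**Figure D4:**
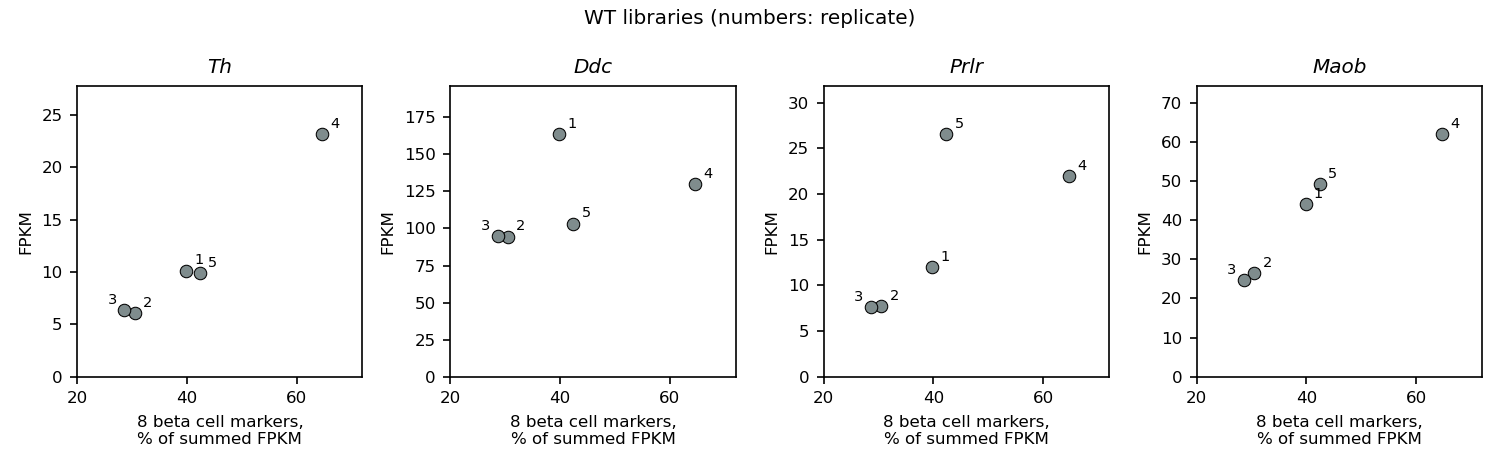
Deposited FPKM of Th, Ddc, Prlr and Maob (y axes, from 0) in the 5 WT libraries. The x axis is the share of the summed FPKM taken by 8 beta cell markers, and numbers are replicates. Replicate 4, at 64.7%, holds the highest Th (23.16 FPKM) and Maob (61.95 FPKM), while the highest Ddc is in replicate 1 and the highest Prlr in replicate 5.

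Ratios within a library do not depend on its scale. Maob over Maoa was 23.1 ± 1.35 in db_REG3B and 9.46 ± 0.794 in db_GFP islets (SD, n = 2 each). The same ratio was 12.0 ± 0.231 in KO_REG3B-Fc, 6.60 ± 0.0668 in KO_PBS and 11.4 ± 0.353 in CTR_PBS islets. In the db and PBS tables the balance of these neighbouring genes differed more between groups than between the 2 libraries of each. Within the single WT label the same ratio ran from 10.8 to 21.2 (SD 4.47, n = 5). Maob over Prlr moved far less within each of these 2 tables. It was 3.54 ± 0.0623 in db_REG3B and 3.12 ± 0.0263 in db_GFP islets. In the PBS table it was 1.30 ± 0.0782 in KO_REG3B-Fc, 1.41 ± 0.0161 in KO_PBS and 1.45 ± 0.111 in CTR_PBS islets. Over the 5 WT libraries it ran from 1.85 to 3.67. On HFD both ratios overlapped, with Maob over Maoa at 12.7 ± 4.57 in BcBKO and 14.3 ± 2.85 in flox/flox islets.

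Across the 19 libraries, with the mean of each table subtracted, Prlr and Maob had the highest Pearson r, 0.83, of the 10 pairs among Ddc, Th, Prlr, Maoa and Maob, the members over the filter in every table, and Maoa and Maob had -0.06. These libraries share their tables and their group differences, so r describes the pattern only. Among 10619 genes the most like pattern to Prlr was that of Sec16b (r = 0.98), a gene of the secretory pathway, followed by Ankrd33b and Zc3h3. For Maob it was Gng12 (r = 0.96), a G protein gamma subunit, followed by Tmem215 and Mns1. For Th it was Atl1 (r = 0.93), then Vps26c and Entpd3; for Ddc Atp8b2 (r = 0.92), then Rrp1 and Fkbp9; and for Maoa Krt18 (r = 0.93), then Pcna and Jtb.

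The hydroxylases need tetrahydrobiopterin, and its synthesis genes were well expressed. Of 8 genes 7 were tested in each comparison. Gch1, which encodes the rate-limiting enzyme GTP cyclohydrolase, lay at 115.76 and 118.82 FPKM at the lowest and highest in db_REG3B and at 111.38 and 113.96 FPKM in db_GFP libraries, against 13.3 to 32.16 FPKM in the other groups, the tables being normalized separately. In KO_PBS against CTR_PBS islets 2 of the 7 rose and 2 fell after median scaling, near the shares of all tested genes, of which 24.6% rose and 20% fell. Gch1 fell by 0.46 (limma adjusted p = 4.97e-05) and Pts by 0.28 (limma adjusted p = 0.0102), while Pcbd1 rose by 0.32, which as deposited was -0.21. In KO_REG3B-Fc against KO_PBS islets 1 rose and 1 fell, where 20.2% of all tested genes rose and 24.7% fell: Gch1 rose by 0.35 (limma adjusted p = 0.000298) and Pcbd1 fell by 0.39, which as deposited was 0.24. In db_REG3B against db_GFP islets Qdpr, which recycles the cofactor, rose by 0.16 (limma adjusted p = 0.0116), and Spr fell by 0.32 and Pts by 0.19, that is, 1 of the 7 rose and 2 fell, where 12.2% of all tested genes rose and 30.8% fell. None passed on HFD or in KO_REG3B-Fc against CTR_PBS islets.

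The later enzymes and the transporters moved in both directions. Of 8 later enzymes 3 were tested on HFD and in the PBS table and 2 in the db table. Aldh2, which oxidises the aldehydes that monoamine oxidases form, and Sult1a1 rose in KO_PBS against CTR_PBS islets after median scaling, by 0.60 and 0.90. Both fell in KO_REG3B-Fc against KO_PBS islets, by 0.69 and 0.55. As deposited the Aldh2 changes were 0.09 and -0.08, neither of which passed. As deposited Sult1a1 changed by 0.46 in KO_PBS against CTR_PBS islets and passed, and by -0.02 in KO_REG3B-Fc against KO_PBS islets, where it did not pass and the groups overlapped, at 4.71 and 5.18 FPKM in KO_REG3B-Fc, against 5.92 and 4.22 FPKM in KO_PBS islets. In db_REG3B against db_GFP islets Aldh2 alone passed and fell by 0.38 (limma adjusted p = 0.0051). Dbh and Pnmt, which make noradrenaline and adrenaline, were at or below 0.05 and 0.13 FPKM where a table lists them.

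Of 10 transporters 4 were tested in each comparison. Slc29a4, a low-affinity monoamine transporter of the plasma membrane, was 19.07 and 20.82 FPKM in db_REG3B islets, against 31.58 and 32.66 FPKM in db_GFP islets, and fell by 0.66 (limma adjusted p = 2.18e-05). It fell by 0.32 in KO_PBS against CTR_PBS islets and rose by 0.61 in KO_REG3B-Fc against KO_PBS islets after median scaling. Slc7a5 and Slc3a2, the subunits of a carrier of large neutral amino acids that takes up tryptophan and tyrosine, rose by 0.18 and 0.29 in db_REG3B against db_GFP islets. In KO_REG3B-Fc against KO_PBS islets they fell by 0.42 and 0.33 after median scaling, while as deposited they rose by 0.20 and 0.29. In each of the 3 PBS comparisons 1 of the 4 transporters rose and 2 fell, where the shares of all tested genes that rose and fell were 24.6% and 20% in KO_PBS against CTR_PBS, 20.2% and 24.7% in KO_REG3B-Fc against KO_PBS, and 5.47% and 5.3% in KO_REG3B-Fc against CTR_PBS. In the db comparison 2 rose and 1 fell, where 12.2% of all tested genes rose and 30.8% fell, and on HFD none passed.

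Receptors for the amines were few among the tested genes. Of 14 serotonin receptors 0 reached the filter on HFD or in the PBS table and 1 did so in the db table. That gene, Htr2b, which in mouse islets is known from pregnancy, was 0.62 and 0.74 FPKM in db_REG3B islets, against 1.74 and 2.11 FPKM in db_GFP islets, and fell by 0.80 (limma adjusted p = 0.000287). It passed the filter only through the db_GFP libraries, so its call supports nothing. Of 14 dopamine and adrenergic receptors 1 or 2 were tested. Adra2a, the receptor through which catecholamines restrain insulin secretion, was 59.09 and 61.82 FPKM in db_REG3B islets, against 50.54 and 49.24 FPKM in db_GFP islets, and rose by 0.27 (limma adjusted p = 0.00141). None passed on HFD or in KO_REG3B-Fc against CTR_PBS islets.

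The listed genes of prolactin and growth hormone signalling, not all of which lie downstream of Prlr, did not move as a block. Ccnd2, which encodes a D-type cyclin, was 104.13 and 106.33 FPKM in db_REG3B islets, against 81.83 and 78.53 FPKM in db_GFP islets, and rose by 0.39 (limma adjusted p = 9.35e-05). In that comparison 3 of 13 tested genes rose and 6 fell, where 12.2% of all tested genes rose and 30.8% fell. Among those that fell were the growth hormone receptor gene Ghr, by 0.42, and the feedback inhibitor gene Socs3, by 0.42. In KO_PBS against CTR_PBS islets 2 of 11 rose and 4 fell after median scaling, where 24.6% of all tested genes rose and 20% fell. Ccnd2 fell there by 0.61 (limma adjusted p = 5.67e-06) and Stat3 by 0.43, while Cish, a STAT5 target, rose by 0.51, which as deposited was 0.07 and did not pass.

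In KO_REG3B-Fc against KO_PBS islets 5 of the 11 rose and 4 fell after median scaling, where 20.2% of all tested genes rose and 24.7% fell. Ccnd2 was 113.24 and 116.35 FPKM in KO_REG3B-Fc islets as deposited, against 45.91 and 45.11 FPKM in KO_PBS islets, and rose by 0.69 (limma adjusted p = 2.98e-06). Socs2, another STAT5 target, rose by 0.42, and Stat3 fell by 0.50, which as deposited was 0.10. In KO_REG3B-Fc against CTR_PBS islets 2 rose and 3 fell, where 5.47% of all tested genes rose and 5.3% fell. Cish was 9.99 and 8.67 FPKM in KO_REG3B-Fc islets as deposited, against 5.11 and 4.68 FPKM in CTR_PBS islets, and rose by 0.70 (limma adjusted p = 0.000447), and Socs2 rose by 0.64. Stat3 fell by 0.93 (limma adjusted p = 5.43e-06) and Socs3 by 0.64. On HFD 0 of 13 passed.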

How the data were processed

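The authors deposited FPKM for 19 islet libraries in 4 tables, TPM (not used here) for the HFD libraries, and, for 4 comparisons, log2 fold changes and p-values of their own. The headers of the PBS and db tables name DESeq2 for these, per the file headers, and no tool is named for HFD. The build GRCm38.p6 is named in the submitters' processing notes; the aligner and counting program are not given in the sources used here. FPKM give no counts, so depth is unknown and no counting interval was computed.

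A gene was tested where 2 or more libraries of its table reached 1 FPKM. The fit was limma's moderated linear model (version 3.58.1, R 4.3.3, variance trend on, two-sided) of log2(FPKM + 1), with every group of a table together and no replicate block: 11560 genes on HFD, 11789 in the PBS table and 12507 in the db table, with 2, 3 and 2 residual degrees of freedom. The fit was tested on simulated data. Value columns without a sample numbered 0.

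Named were the 8 members, up to 4 passing genes per list and comparison, and the 3 genes of most like pattern to each member expressed in every table. The lists were cofactor synthesis, later enzymes, transporters, serotonin receptors, dopamine and adrenergic receptors, and prolactin and growth hormone signalling; members and lists were chosen with earlier results of these data known. Replicate numbers are shared between groups, but the labels name no shared animal, day or batch. Some genes of these lists are not reported here.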

Additional observations from a re-analysis of the deposited data

Results flagged for a closer look

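Among the 5 WT libraries 2 values of the 7 genes with a row stood far from the others by Dixon's gap criterion, which chance meets in about 1 in 20 groups. Th in WT replicate 4 was 23.16 FPKM, and its gap to the next library was 0.761 of the range, above the critical value of 0.71 for 5 libraries. Tph2 in WT replicate 4 was 0.41 FPKM, with a gap of 0.75 of the range. Both are the same library, which also had the highest share of beta cell markers (64.7% of the summed FPKM) and the lowest share of acinar markers (4.34%). The part of these shares in the 2 values was not tested. Groups of 2 libraries were too small for this criterion.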

How the results depend on the processing

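The direction of Maob and Prlr held on all 3 scales and without each library in KO_PBS against CTR_PBS, KO_REG3B-Fc against KO_PBS and db_REG3B against db_GFP, and both stayed past the threshold. Counts of members called ranged, leaving out 1 library in turn, over 0 to 0 on HFD, 2 to 4 in KO_PBS against CTR_PBS (4 with all), 3 to 4 in KO_REG3B-Fc against KO_PBS (4 with all), 0 to 2 in KO_REG3B-Fc against CTR_PBS (3 with all) and 3 to 3 in the db comparison; with a lone library in a group, its spread is assumed to be that of the others. The count in KO_REG3B-Fc against CTR_PBS was 1 with endocrine scaling. With either CTR_PBS library left out, Tph2 fell under the filter, so it could not be called in the comparisons against CTR_PBS. What else moved these counts was not tested.

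Changes reversed as follows on the log2 scale. As deposited, Ddc was -0.49 and Maoa -0.20 in KO_PBS against CTR_PBS, Tph2 0.056 and Maoa 0.29 in KO_REG3B-Fc against KO_PBS, and Th 0.060 in KO_REG3B-Fc against CTR_PBS. With endocrine scaling Th was -0.10 in KO_REG3B-Fc against KO_PBS, and Maoa -0.097 and Maob -0.059 in KO_REG3B-Fc against CTR_PBS. On HFD Ddc was -0.018 and Maoa -0.041 with median scaling, and -0.072 and -0.080 with endocrine scaling. Leaving out 1 library, changes that turned sign ranged on HFD from -0.10 to 0.25 for Ddc, from -0.044 to 0.10 for Maoa, from -0.35 to 0.10 for Prlr and from -0.44 to 0.11 for Maob. They ranged from -0.043 to 0.13 for Th in KO_REG3B-Fc against KO_PBS, and in KO_REG3B-Fc against CTR_PBS from -0.12 to 0.055 for Th and from -0.0013 to 0.043 for Maoa. None of these 7 had passed the threshold.

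The count of all genes called was 5262 in KO_PBS against CTR_PBS and 10624 as deposited, 5293 in KO_REG3B-Fc against KO_PBS and 10979 as deposited, and 1270 in KO_REG3B-Fc against CTR_PBS, where it was 2315 as deposited, 4717 with endocrine scaling, 723 without the filter and 463 to 597 without 1 library. It was 5386 in the db comparison and 3146 to 4902 without 1 library.

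With the replicate block the counts of members called stayed at 0, 4, 4, 3 and 3, and the adjusted p of Th on HFD was 0.0774 in place of 1.00. Replicate differences of the 2 groups correlated at 0.669 on HFD and between -0.05 and 0.05 in the other comparisons; the samples share only a number, and 4 genes in place of 1 were called on HFD with the block. The WT means moved by less than the SD of the 5 libraries under every alternative. Depth is unknown, so no limit of detection can be set for Tph1, Tph2 and Slc18a2.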
